A study of Homo sapiens with 6 samples.

Results

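AP-1 and immediate early transcription factors were examined in C4-2B prostate cancer cells as a set of 10 genes out of the 58024 genes of the deposited expression table. The set was chosen by gene name and holds the FOS family (FOS, FOSB, FOSL1 and FOSL2), the JUN family (JUN, JUNB and JUND), ATF3, EGR1 and IER2. Expression was measured by RNA-Seq in C4-2B parental cells (3 libraries) and in C4-2B enzalutamide resistant cells (3 libraries), which are numbered 0 to 2 in each group. C4-2B is a castration-resistant human prostate cancer line derived from LNCaP cells by way of the C4-2 subline, and enzalutamide is an antiandrogen drug. The resistant cells had been passaged in enzalutamide rising from 1 to 20 µM over at least 6 months, after which they were maintained in 5 µM, while the parental cells were passaged in the vehicle dimethyl sulfoxide. The labels give this vehicle as 1%, and the methods of the study give a lower ceiling. RNA was extracted with enzalutamide at 10 µM in the medium, and the sources do not settle whether the parental cells received it as well. The surviving resistant cells were pooled, so that the resistant group is 1 selected population, and no source states that the libraries of a group came from separate cultures. All p values therefore measure the spread between these libraries, which may be technical.

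AP-1 is a dimer of basic leucine zipper (bZIP) proteins. FOS proteins bind DNA mainly as dimers with a JUN protein. JUN proteins can also pair with each other or with ATF proteins, and the makeup of the dimer sets how strongly a target gene is activated or repressed. Many of these genes are immediate early genes, which are transcribed within minutes of a growth factor, stress or change of medium without new protein synthesis, and their transcripts decay quickly.

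The deposited table names no unit, and its values were taken as FPKM from the tools of the study and the form of the values. FPKM counts fragments relative to transcript length and to the mapped fragments of the library, and the comparisons of levels between genes, the family shares and the family sums rest on this reading. Depth was estimated at 1.32e+07 to 2.01e+07 reads per library, at which 1 read on a transcript of 2000 bases is worth 0.0276 to 0.0420 FPKM. The libraries listed 21956 to 27153 genes above 0. Luminal prostate markers identified the cells: all 12 were expressed in both groups, with 2 higher and 9 lower in the resistant cells, and the androgen-induced KLK3 fell from a mean of 2556 to 44.04 FPKM. Markers of other cell types were low. The 8 fibroblast markers summed to 8.10 to 11.96 FPKM in the parental and 8.41 to 15.0 FPKM across the resistant libraries, with 2 of them higher and 1 lower, and DCN was listed at 0 in all parental libraries. The 8 endothelial and immune markers summed to 0.656 to 1.79 and 0.436 to 1.19 FPKM, and the 5 basal markers to 0.559 to 0.987 and 1.78 to 1.86 FPKM. Neuroendocrine markers moved with the groups, from sums of 7.16 to 11.3 FPKM to sums of 209 to 233 FPKM, with 6 of 8 upregulated. Most of the resistant sum was ENO2 and SYP, with resistant means of 139 and 49.6 FPKM. CHGA reached a resistant mean of only 0.563 FPKM and INSM1 one of 0.0123 FPKM. NCAM1 went from 0.334 to 0.124 FPKM and was not called. By the rule given below, 22.1% of all genes tested were called higher and 22.3% lower. The part of the neuroendocrine markers in the values below was not tested. In bulk RNA, fewer cells that express a gene and less of its RNA per cell cannot be told apart.

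The start sites of these genes are shown first because they carry short sequence elements through which immediate early genes are known to be switched on. RefSeq windows on GRCh38.p14 were found for 9 of the 10 genes, with 2 windows for ATF3. Those of ATF3 lie far apart, at chr1:212565157-212565406 and, well inside its GENCODE v44 gene, at chr1:212614768-212615017. Any other start of ATF3 was not searched. Each line below gives the 250 bases before the annotated start, 5′ to 3′ on the strand of the gene, and motifs were searched in these 250 bases. EGR1, FOS and JUN are shown because their RNA was higher in the resistant cells, and JUNB and JUND because their RNA was lower. Capitals mark the cAMP response element TGACGTCA or its core TGACGT (also ACGTCA, its other strand), and the AP-1-like octamer TGACATCA. Also in capitals are CArG boxes, which bind the serum response factor SRF and were found in the EGR1 window alone. Sequence farther from the start was not searched, so a motif missing from a window may still lie outside it. The JUNB window holds none of these motifs. Neither does the window of IER2, whose RNA was also higher in the resistant cells and which is not shown.
EGR1 promoter, chr5:138465229-138465478, plus strand: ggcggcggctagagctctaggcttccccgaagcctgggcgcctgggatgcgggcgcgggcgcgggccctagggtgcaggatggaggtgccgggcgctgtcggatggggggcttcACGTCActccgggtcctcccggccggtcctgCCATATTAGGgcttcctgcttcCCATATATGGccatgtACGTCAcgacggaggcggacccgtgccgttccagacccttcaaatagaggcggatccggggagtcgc
FOS promoter, chr14:75278578-75278827, plus strand: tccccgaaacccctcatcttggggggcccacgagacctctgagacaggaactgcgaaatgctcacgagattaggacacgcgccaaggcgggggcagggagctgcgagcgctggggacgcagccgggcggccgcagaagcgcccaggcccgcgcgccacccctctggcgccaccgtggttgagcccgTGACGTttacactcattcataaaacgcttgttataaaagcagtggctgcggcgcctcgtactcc
JUN promoter, chr1:58784048-58784297, minus strand: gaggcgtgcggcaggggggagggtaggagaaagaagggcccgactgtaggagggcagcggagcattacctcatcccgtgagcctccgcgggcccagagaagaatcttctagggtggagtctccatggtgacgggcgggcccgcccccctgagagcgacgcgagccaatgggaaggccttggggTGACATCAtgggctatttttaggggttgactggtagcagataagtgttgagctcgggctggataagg
JUNB promoter, chr19:12791236-12791485, plus strand: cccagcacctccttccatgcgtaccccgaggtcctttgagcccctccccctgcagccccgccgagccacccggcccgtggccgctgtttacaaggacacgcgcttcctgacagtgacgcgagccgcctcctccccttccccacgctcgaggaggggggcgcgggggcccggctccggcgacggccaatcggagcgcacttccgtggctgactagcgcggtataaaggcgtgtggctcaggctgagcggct
JUND promoter, chr19:18281623-18281872, minus strand: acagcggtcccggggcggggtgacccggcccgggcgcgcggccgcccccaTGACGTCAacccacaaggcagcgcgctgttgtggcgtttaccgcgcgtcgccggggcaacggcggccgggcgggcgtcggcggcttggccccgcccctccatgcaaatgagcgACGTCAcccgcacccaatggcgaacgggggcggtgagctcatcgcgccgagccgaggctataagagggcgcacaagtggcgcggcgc
The core TGACGT was present in the windows of EGR1, FOS, FOSB, FOSL2 and JUND, which is 5 of 10 windows, while 7.1% of all 35116 RefSeq windows held it on either strand. This count includes the full cAMP response element of JUND, since the core lies within it, and the full element was found in 1.65% of all windows. In FOS, FOSB and FOSL2 the core lay at nearly the same place, 64 to 59, 60 to 55 and 66 to 61 bases before the start, although the RefSeq start of FOSL2 lies inside the longer GENCODE v44 gene. The pair of CArG boxes of EGR1 lay 105 to 96 and 83 to 74 bases before its start, between both of its response element cores, and 1.16% of all windows held such a box. The octamer TGACATCA, searched together with its other strand TGATGTCA, was found in 2.37% of all windows. In JUN it lay 67 to 60 bases before the start. In ATF3 it lay 123 to 116 bases before the farther upstream of its 2 starts, and it was absent from the other window. The AP-1 site itself (TGACTCA, or TGAGTCA on the other strand) was in none of the 10 windows and in 4.2% of all windows. The site bound by EGR proteins (GCGTGGGCG, or CGCCCACGC on the other strand) was also in none of them, against 0.72% of all windows. Genes with the same element went in opposite directions: the core is shared by FOS and EGR1, which were higher in the resistant cells, and by FOSL2 and JUND, which were lower, and the octamer by JUN, which was higher, and ATF3, which was lower. These matches describe letters in a window and do not show that a factor was bound.

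In the enzalutamide resistant cells, FOS, EGR1, JUN and IER2 were upregulated, and FOSL2, JUNB, JUND and ATF3 were downregulated. The groups were compared with limma on log2(FPKM + 0.1), where the 0.1 FPKM is a pseudocount that understates the change of low genes, over the 24468 genes that averaged 0.1 FPKM or more. A gene was called at a Benjamini-Hochberg adjusted p below 0.05 over all of these genes. Of the 10 genes, 9 were tested, 8 were called and FOSL1 fell below the filter. Over all genes tested, 44.4% were called, 22.1% as higher and 22.3% as lower, so that a called gene was common in this comparison. Calls were more common among better expressed genes. With a filter of at least 1 FPKM, 9021 of 16382 genes tested were called, and 8 of 8 members. The parental and resistant values did not overlap in 8 of the 9 genes tested, and in 54.8% of all genes tested. The median log2 difference of the 9 genes was 0.48, against −0.05 over all genes tested, and the median size of the difference regardless of direction was 0.89, against 0.85. The smallest two-sided p that an exact permutation of 3 libraries against 3 allows is p = 0.1, so the calls rest on the limma fit across all genes.

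**Figure D1:**
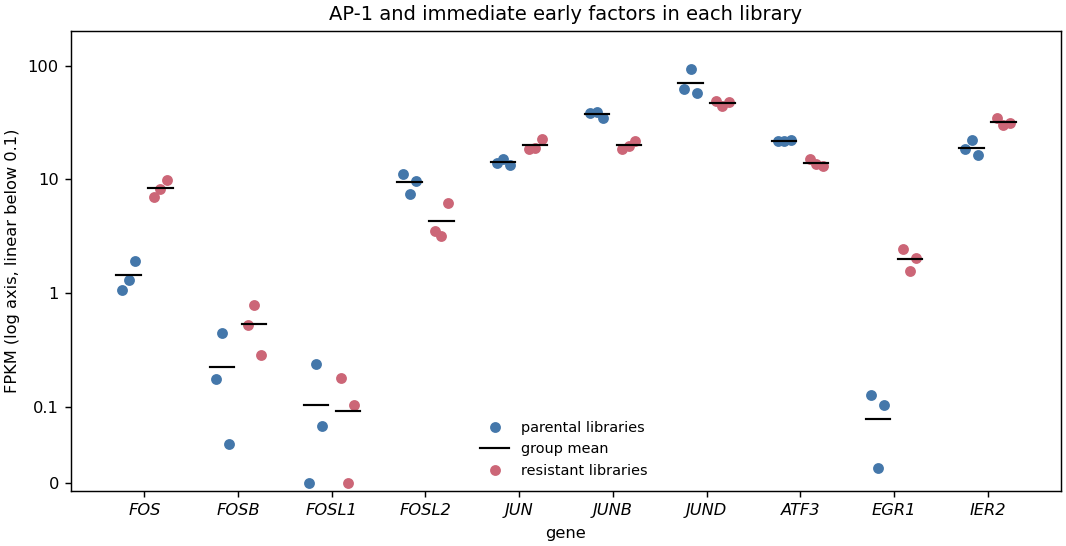
FPKM of the 10 genes (log axis, linear below 0.1) in each of the 3 parental libraries (blue) and 3 resistant libraries (red), with the group mean as a line. FOS and EGR1 are higher in every resistant library, FOSL2, JUNB, JUND and ATF3 are lower in every resistant library, and the groups overlap in FOSB and FOSL1.

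FOS on chromosome 14 (GRCh38, chr14:75278826-75282230, plus strand) encodes the founding FOS protein, which activates transcription as a dimer with JUN. FOS was at 1.07, 1.32 and 1.93 FPKM across the parental libraries and at 6.99, 8.31 and 9.87 FPKM across the resistant libraries. Every resistant library lay above every parental library, and the lowest resistant value was more than 3 times the highest parental value. The means were 1.44 ± 0.444 and 8.39 ± 1.44 FPKM (SD, n = 3 each), a ratio of 5.83. The log2 difference was 2.49 (SE 0.26, 95% interval 1.85 to 3.12, limma with Benjamini-Hochberg adjustment, adjusted p = 5.49e-04), and it passed the threshold with each library left out. In each library, FOS moved from percentile 39.1 to 44.6 of the genes tested in the parental cells to percentile 59.8 to 64.1 in the resistant cells.

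FOSL2 on chromosome 2 (chr2:28392448-28417317, plus strand) encodes FRA-2, a FOS family protein that lacks the strong activation domain of FOS. FOSL2 was at 11.3, 7.44 and 9.66 FPKM across the parental libraries and at 3.51, 3.18 and 6.19 FPKM across the resistant libraries. The resistant values were all lower, although resistant library 2 came close to parental library 1. The means were 9.45 ± 1.92 and 4.30 ± 1.65 FPKM (SD, n = 3 each), so that the resistant mean was 0.454 of the parental mean. The log2 difference was −1.16 (SE 0.29, 95% interval −1.87 to −0.45, limma with Benjamini-Hochberg adjustment, adjusted p = 0.0189). This call was lost without parental library 0, parental library 2, resistant library 0 or resistant library 1, with log2 differences of −1.03, −1.14, −1.05 and −0.98 and adjusted p values of 0.0805, 0.0749, 0.0875 and 0.0729 from the same limma fit.

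FOSB and FOSL1, the other FOS family genes, were near the lower limit of detection. FOSB (chr19:45467995-45475179, plus strand) was at 0.176, 0.445 and 0.0515 FPKM across the parental libraries and at 0.530, 0.784 and 0.287 FPKM across the resistant libraries. The groups overlapped, since parental library 1 exceeded resistant library 2. Its log2 difference of 1.08 (SE 0.61, 95% interval −0.39 to 2.55) did not pass the threshold (limma with Benjamini-Hochberg adjustment, adjusted p = 0.198), and its interval spans 0. FOSB overlaps the DNA repair gene ERCC1 on the opposite strand, which was called higher with a log2 difference of 0.40, and the sources do not state whether the counting used strand. FOSL1 (chr11:65892049-65900573, minus strand), which encodes FRA-1, had 0, 0.238 and 0.0750 FPKM across the parental and 0.179, 0 and 0.105 FPKM across the resistant libraries. The groups overlapped and no test was made.

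The RNA of the FOS family changed in makeup while its summed level overlapped between the groups. FOSL2 made up 90.0%, 78.8% and 82.5% of the summed FPKM of the 4 genes across the parental libraries and 31.3%, 25.9% and 37.6% across the resistant libraries. FOS made up 8.54%, 13.97% and 16.5% in the parental and 62.4%, 67.7% and 60.0% across the resistant libraries, so that FOSL2 led in every parental library and FOS in every resistant library. The ratio of FOS to FOSL2 was 0.0949, 0.177 and 0.1998 across the parental libraries and 1.99, 2.61 and 1.59 across the resistant libraries. The sum of the family was 12.5, 9.44 and 11.7 FPKM against 11.2, 12.3 and 16.5 FPKM. Shares and sums are given as a description of RNA, with no test, and the proteins and their dimers were not measured in these libraries.

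JUN on chromosome 1 (chr1:58776845-58784048, minus strand) encodes c-Jun, the strongest activator of the JUN family and the main substrate of the JNK kinases. JUN was at 14.1, 15.2 and 13.5 FPKM across the parental libraries and at 18.6, 18.8 and 22.5 FPKM across the resistant libraries. The resistant values were all higher, by a modest margin. The means were 14.3 ± 0.864 and 20.0 ± 2.205 FPKM (SD, n = 3 each), a ratio of 1.40. JUN thus differed on the log2 scale by 0.48 (SE 0.11, 95% interval 0.20 to 0.75, limma with Benjamini-Hochberg adjustment, adjusted p = 0.0152).

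JUNB on chromosome 19 (chr19:12791486-12793315, plus strand) is a single-exon gene whose protein activates many AP-1 sites more weakly than c-Jun and can oppose it. JUNB was at 38.2, 38.9 and 34.4 FPKM across the parental libraries and at 18.6, 19.6 and 21.9 FPKM across the resistant libraries. All resistant values were well below the parental ones, with little spread in either group. The means were 37.2 ± 2.46 and 20.0 ± 1.70 FPKM (SD, n = 3 each), 1.86 times lower in the resistant cells. The log2 difference was −0.89 (SE 0.10, 95% interval −1.13 to −0.65, limma with Benjamini-Hochberg adjustment, adjusted p = 6.81e-04). HOOK2, which encodes a protein that links cargo to microtubule motors, overlaps JUNB on the opposite strand and was also lower, at 61.2, 51.0 and 97.2 FPKM in the parental and 45.6, 26.9 and 24.7 FPKM across the resistant libraries. Without stated use of strand, reads of these overlapping genes may not have been told apart, and the part of HOOK2 in the JUNB difference was not tested.

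JUND on chromosome 19 (chr19:18279694-18281622, minus strand) encodes a JUN protein that most resting cells express, and was the most abundant of the 10 genes in both groups. JUND was at 62.6, 93.1 and 56.8 FPKM across the parental libraries and at 48.9, 44.3 and 47.4 FPKM across the resistant libraries. The resistant values were close together and all lower, and parental library 1 was far above the other parental libraries. The means were 70.8 ± 19.5 and 46.9 ± 2.33 FPKM (SD, n = 3 each), 1.51 times lower in the resistant cells. The log2 difference was −0.56 (SE 0.19, 95% interval −1.01 to −0.11, limma with Benjamini-Hochberg adjustment, adjusted p = 0.0488). The call sat at the threshold and held in only 3 of 16 alternative settings, and without parental library 1 the difference was −0.35 with a limma adjusted p of 0.0244.

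Within the JUN family the balance of RNA moved towards JUN. The share of JUN in the summed FPKM of the 3 genes was 12.2%, 10.3% and 12.9% across the parental libraries and 21.6%, 22.7% and 24.5% across the resistant libraries. The share of JUNB was 33.3%, 26.5% and 32.8% against 21.6%, 23.7% and 23.8%. These shares did not overlap between the groups, and JUNB, which exceeded JUN in every parental library, was at about the same level as JUN across the resistant libraries. The ratio of JUN to JUNB was 0.368, 0.390 and 0.393 across the parental libraries and 1.00, 0.960 and 1.03 across the resistant libraries. JUND kept the largest share in all libraries, at 54.5%, 63.2% and 54.3% in the parental and 56.8%, 53.6% and 51.7% across the resistant libraries, with overlap. The summed level of the family was 115, 147 and 105 FPKM in the parental and 86.0, 82.7 and 91.8 FPKM across the resistant libraries, lower in each resistant library. FOS family RNA was scarcer than JUN family RNA throughout, with a ratio of the sums of 0.109, 0.0641 and 0.112 in the parental and 0.1304, 0.148 and 0.179 across the resistant libraries.

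**Figure D2:**
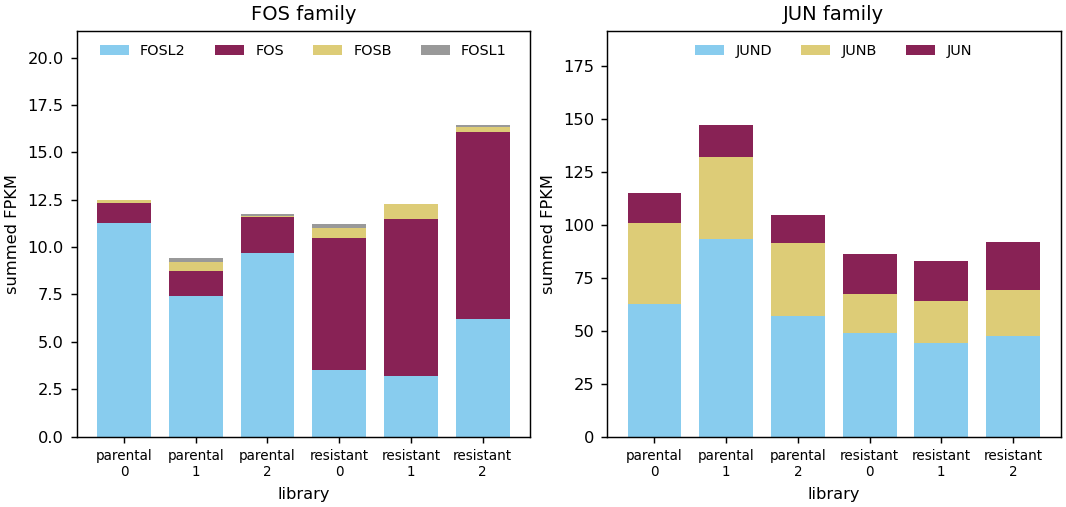
Summed FPKM of the FOS family (left) and of the JUN family (right) in each library, stacked by gene on linear axes that start at 0. FOSL2 fills most of the FOS family bar across the parental libraries and FOS across the resistant libraries, while JUND fills the largest part of the JUN family bar in all 6 libraries.

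ATF3 on chromosome 1 (chr1:212565334-212620777, plus strand) encodes a stress-induced bZIP protein that pairs with JUN proteins and can repress its targets. ATF3 was at 21.6, 21.8 and 22.2 FPKM across the parental libraries and at 15.0, 13.5 and 13.0 FPKM across the resistant libraries. The parental values were nearly identical, and all resistant values were lower. The means were 21.9 ± 0.315 and 13.8 ± 1.03 FPKM (SD, n = 3 each), 1.58 times lower in the resistant cells. ATF3 had a log2 difference of −0.66 (SE 0.09, 95% interval −0.89 to −0.43, limma with Benjamini-Hochberg adjustment, adjusted p = 0.00182).

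EGR1 on chromosome 5 (chr5:138465479-138469303, plus strand) encodes a zinc finger factor that is no bZIP protein but is induced together with FOS by growth factors through SRF and its ELK partners. EGR1 was at 0.127, 0.0202 and 0.105 FPKM across the parental libraries and at 2.45, 1.56 and 2.05 FPKM across the resistant libraries. The gene was close to undetected in the parental cells and clearly expressed, although at a low level, in every resistant library. On its transcript of 3137 bases these values correspond to an estimated 7.53, 1.15 and 4.07 reads in the parental and 122, 73.9 and 85.9 reads across the resistant libraries, with fragments assumed to be 200 bases long. EGR1 had a log2 difference of 3.55 (SE 0.41, 95% interval 2.58 to 4.53, limma with Benjamini-Hochberg adjustment, adjusted p = 7.38e-04). Its size depends on the pseudocount, with a log2 difference of 1.47 at 1 FPKM and 4.67 at 0.01 FPKM, and both passed the threshold. At 1 FPKM the difference of FOS, 1.95, was larger than that of EGR1, while at 0.1 FPKM that of EGR1 was the larger.

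IER2 on chromosome 19 (chr19:13150411-13154911, plus strand) encodes a short-lived nuclear protein of the immediate early response. IER2 was at 18.6, 22.0 and 16.4 FPKM across the parental libraries and at 34.8, 30.2 and 31.2 FPKM across the resistant libraries. All resistant values were higher. The means were 19.0 ± 2.83 and 32.1 ± 2.42 FPKM (SD, n = 3 each), a ratio of 1.69. IER2 had a log2 difference of 0.76 (SE 0.13, 95% interval 0.44 to 1.07, limma with Benjamini-Hochberg adjustment, adjusted p = 0.00407).

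**Figure D3:**
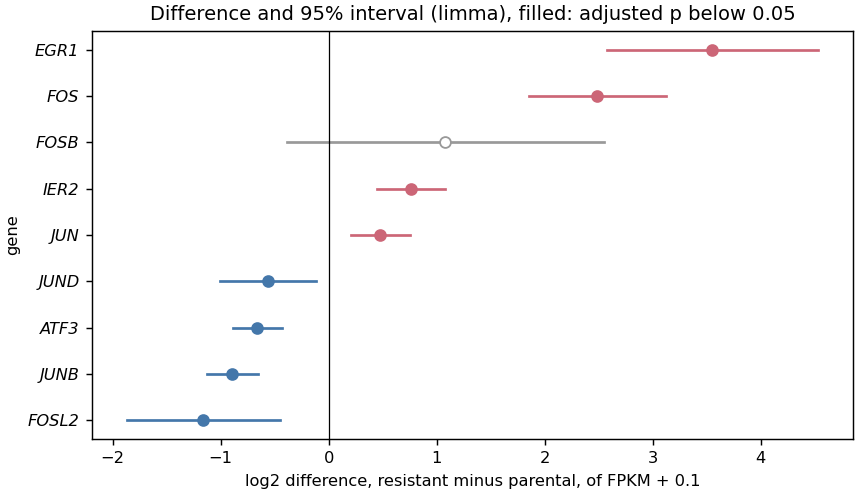
Log2 difference (resistant minus parental, of FPKM + 0.1) of the 9 genes tested, with 95% intervals from limma and filled points for an adjusted p below 0.05. EGR1 and FOS lie above 2, IER2 and JUN between 0 and 1, FOSL2, JUNB, ATF3 and JUND below 0, and the interval of FOSB spans 0.

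The order of the levels changed between the groups. In the parental cells the order from the highest mean was JUND, JUNB, ATF3, IER2, JUN, FOSL2, FOS, FOSB, FOSL1 and EGR1. In the resistant cells it was JUND, IER2, JUNB, JUN, ATF3, FOS, FOSL2, EGR1, FOSB and FOSL1. Neighbours whose libraries overlapped, and whose order is therefore not set, were ATF3 and IER2, FOSB and FOSL1, and FOSL1 and EGR1 in the parental cells, and JUNB and JUN in the resistant cells. IER2 was below JUNB in every parental library and above it in every resistant library, and FOS likewise against FOSL2.

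Transcripts of this kind respond to handling within minutes, and their spread within each group was therefore examined. No library had all of these genes displaced in the same direction from the mean of its group. Handling that differed between the groups would not show in these deviations, and it cannot be told apart from the group difference. Parental library 1 stood apart most, with a median absolute deviation of 0.27 on the log2 scale over the 10 genes, against 0.08 to 0.16 in the other libraries and 0.20 for all genes tested in that library. In it FOSB lay 0.94 and JUND 0.43 above the parental mean, and EGR1 lay at −0.56. Resistant library 2 had 7 of the 10 genes above the mean of its group, led by FOSL2 at 0.58, and resistant library 1 had 8 below. A list of 11 heat shock genes, which respond to stress as well, deviated by a median of −0.05 in parental library 1 and by medians of −0.08 to 0.08 in all libraries. Between the groups, 7 of these heat shock genes were lower, 1 was higher and 3 were not called. Over all genes tested, 22.3% were called lower and 22.1% higher. HSPB1, HSPH1 and BAG3 were lower, with log2 differences of −2.53, −2.46 and −2.39. The exception was HSPA1A, listed at 0 in all parental libraries, which shares nearly all its sequence with HSPA1B and is therefore uncertain. The part of the stress response in the values of AP-1 genes was not tested.

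**Figure D4:**
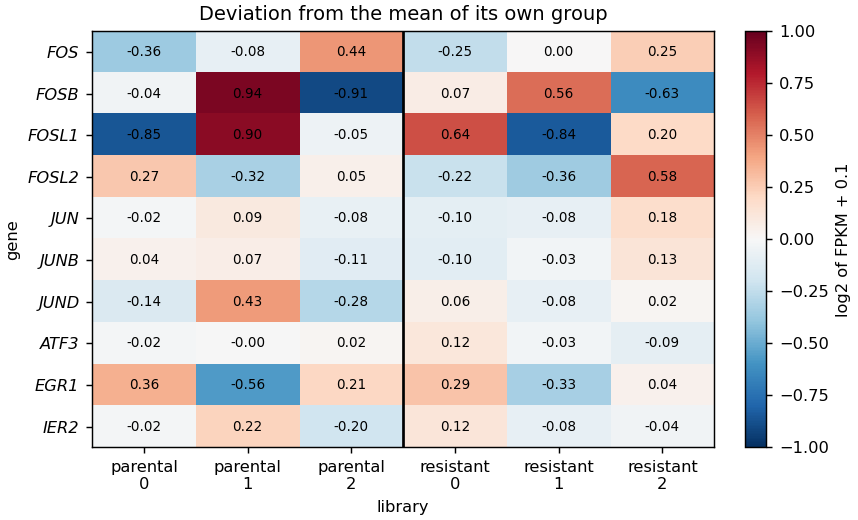
Deviation of each gene from the mean of its own group on the scale of log2(FPKM + 0.1), by library (columns), with the value written in each cell. The largest deviations are in the low genes FOSB and FOSL1, and JUN, JUNB and ATF3 stay within 0.18 of their group mean in all 6 libraries.

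The other bZIP proteins, which can pair with FOS and JUN proteins or compete for related sites, went in both directions. Of 29 genes, 26 were tested, with 6 upregulated, 9 downregulated and 11 not called, and the median log2 difference was 0.10. Over all genes tested, 22.1% were called higher and 22.3% lower. The largest increases at a mean of at least 1 FPKM were in BATF3, a partner of JUN proteins, MAFF, a small MAF protein without an activation domain, and ATF6, a sensor of stress in the endoplasmic reticulum. BATF3 was at 0.836, 0.295 and 1.31 FPKM in the parental and 6.35, 3.96 and 7.12 FPKM across the resistant libraries. MAFF rose from 0.748 ± 0.286 to 3.94 ± 0.572 FPKM and ATF6 from 7.37 ± 0.137 to 11.5 ± 1.37 FPKM (SD, n = 3 each). MAF, a large MAF protein with an activation domain, had a strong decrease. MAF was at 14.8, 22.3 and 15.4 FPKM in the parental and at 0.0226, 0.0246 and 0.120 FPKM across the resistant libraries, a log2 difference of −6.85 (SE 0.34, limma with Benjamini-Hochberg adjustment, adjusted p = 3.16e-05). MAF went from a clearly expressed gene to one close to undetected. NFE2L3, a relative of NRF2, fell from 7.71 ± 1.33 to 3.58 ± 1.33 FPKM. JDP2 and ATF2, direct partners of JUN that are named after their values were seen, were lower by −0.86 and −1.06 on the log2 scale.

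Of 35 other immediate early genes, 30 were tested, with 10 upregulated, 9 downregulated and 11 not called, where 44.4% of all genes tested were called, and a median log2 difference of 0.22. TRIB1, a pseudokinase that recruits a ubiquitin ligase, was at 9.21, 5.66 and 6.79 FPKM in the parental and 101, 93.2 and 104 FPKM across the resistant libraries, a log2 difference of 3.79 (SE 0.18, limma with Benjamini-Hochberg adjustment, adjusted p = 2.68e-05). CTGF, a secreted matrix protein, was at 0.0253, 0 and 0.150 FPKM in the parental and 3.31, 3.59 and 2.04 FPKM across the resistant libraries. PPP1R15A, a phosphatase subunit of the stress response, rose from 2.31 ± 0.174 to 11.5 ± 0.303 FPKM. These increases are in genes of different function. GDF15, a stress-induced cytokine, fell from 286 ± 13.7 to 27.5 ± 2.67 FPKM, a log2 difference of −3.38 (SE 0.09, limma with Benjamini-Hochberg adjustment, adjusted p = 4.60e-06). ARC, a cytoskeletal protein best known from neurons, fell from 4.30 ± 0.535 to 0.546 ± 0.163 FPKM, and the kinase gene SGK1 from 2.33 ± 0.965 to 0.675 ± 0.559 FPKM with overlapping libraries. The closest relatives of EGR1 were low: EGR3, named after its values were seen, had means of 0.00689 and 0.198 FPKM and was not called, and EGR2 and EGR4 fell below the filter.

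Among 30 kinases and factors upstream of AP-1, which include the MAP kinases, their activating kinases and the SRF, ELK and MEF2 factors, 5 were upregulated, 10 were downregulated and 15 were not called, with a median log2 difference of −0.27. This share called is near the 44.4% of all genes tested. With a filter of at least 1 FPKM, 5 of the 30 were called higher and 12 lower, beside 9021 of 16382 genes tested. The p38 kinase genes MAPK11 and MAPK12 rose from 7.86 ± 1.60 to 37.6 ± 1.27 FPKM and from 38.0 ± 1.34 to 74.2 ± 4.79 FPKM (SD, n = 3 each). The other p38 genes, MAPK13 and MAPK14, were not called, with log2 differences of −0.30 and 0.14. Of the activators of p38 kinases, MAP2K3 fell from 49.9 ± 3.94 to 24.5 ± 2.23 FPKM and MAP2K6 rose from 7.21 ± 2.40 to 12.6 ± 0.648 FPKM. MAPK13, MAPK14 and MAP2K6 are named after their values were seen. MEF2C, a factor that acts at the JUN promoter, was at 0.0623, 0.503 and 0.1703 FPKM in the parental and 2.64, 38.7 and 3.11 FPKM across the resistant libraries. All resistant values were higher, but resistant library 1 was far above the other resistant libraries. RPS6KA2, a ribosomal S6 kinase downstream of ERK, fell from 16.7 ± 3.18 to 1.303 ± 0.319 FPKM, and ELK4, a partner of SRF, from 32.8 ± 2.51 to 14.2 ± 0.983 FPKM. SRF itself, named after its values were seen, had a log2 difference of −0.23 and was not called (limma with Benjamini-Hochberg adjustment, adjusted p = 0.113).

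Of 11 genes for turnover and cofactors of these proteins, 4 were upregulated, 2 were downregulated and 5 were not called, also near the 44.4% called over all genes tested, with a median log2 difference of 0.02. NAB1 and NAB2 encode corepressors that bind EGR1, and both were higher. NAB1 was at 2.13, 3.95 and 3.71 FPKM in the parental and 15.1, 14.6 and 20.6 FPKM across the resistant libraries, and NAB2 at 5.17, 5.12 and 4.95 FPKM against 13.8, 14.5 and 14.3 FPKM. Their log2 differences were 2.35 (SE 0.27) and 1.46 (SE 0.10), with limma Benjamini-Hochberg adjusted p values of 7.89e-04 and 1.17e-04. RFWD2, also known as COP1, a ubiquitin ligase for JUN, rose from 16.3 ± 2.21 to 33.5 ± 5.48 FPKM. The acetyltransferase gene CREBBP, a coactivator of JUN and FOS, fell from 83.2 ± 30.8 to 23.9 ± 3.33 FPKM (SD, n = 3 each).

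Textbook AP-1 target genes were mostly low in these cells. Of 30 genes, 21 had a mean below 1 FPKM, 10 were not tested, and IL6, MMP3 and FABP4 were listed at 0 in all 6 libraries. Of the 20 tested, 9 were upregulated, 3 were downregulated and 8 were not called, with a median log2 difference of 0.84, against −0.05 over all genes tested, of which 22.1% were called higher and 22.3% lower. TIMP1, an inhibitor of matrix metalloproteinases, was at 1.10, 0 and 0.382 FPKM in the parental and 75.8, 73.1 and 64.9 FPKM across the resistant libraries. KRT7, a keratin, was at 0, 0.197 and 0 FPKM against 25.1, 16.6 and 25.1 FPKM, and the adhesion receptor gene CD44 was at 0.0120, 0.543 and 0.181 FPKM against 23.7, 24.1 and 32.8 FPKM. KRT7 and CD44 went from close to undetected to clearly expressed, and TIMP1 rose from low parental values that reached 1.10 FPKM in 1 library. CCND1, the cyclin D1 gene, named after its values were seen, had the highest level of the list, with means of 274 and 1759 FPKM and a log2 difference of 2.68. LAMA3, a laminin chain, went the other way, from 70.6 ± 6.09 to 1.15 ± 0.268 FPKM, a log2 difference of −5.84 (SE 0.18, limma with Benjamini-Hochberg adjustment, adjusted p = 6.27e-06). HMOX1, heme oxygenase, fell from 15.8 ± 3.02 to 3.21 ± 0.172 FPKM, and VIM, vimentin, from 21.7 ± 2.19 to 5.34 ± 0.578 FPKM (SD, n = 3 each). These genes have other regulators as well, and no link to the level of an AP-1 gene was tested.

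**Figure D5:**
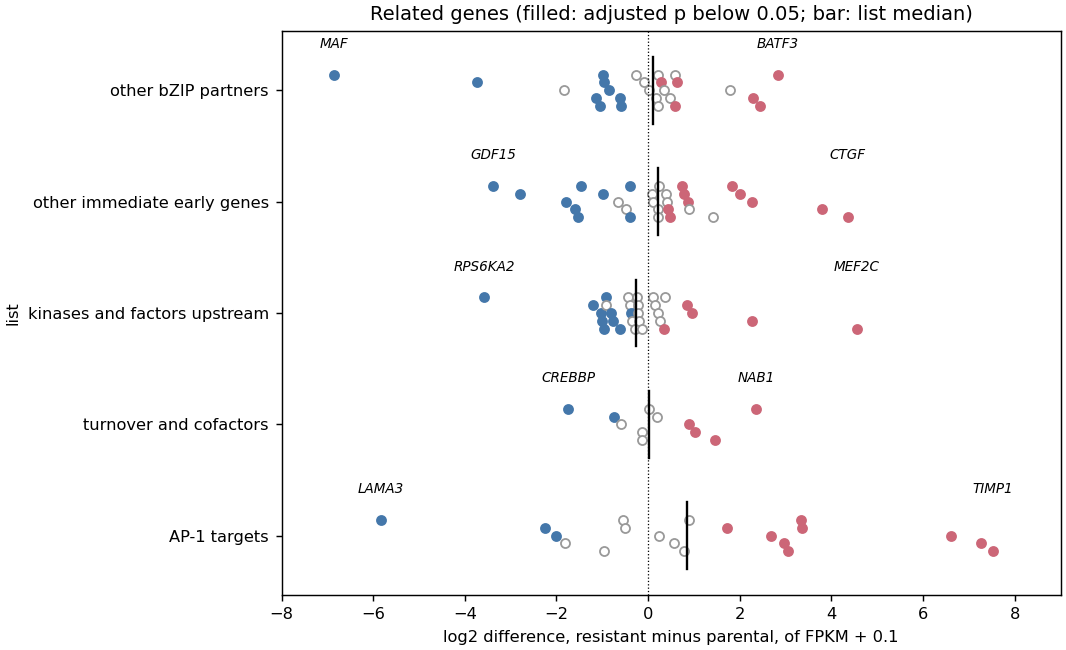
Log2 difference (resistant minus parental, of FPKM + 0.1) of each tested gene of the 5 related lists, filled red or blue where it was called higher or lower, open where it was not called, with the list median as a bar and the extreme named genes labelled. Every list holds called genes on both sides of 0, and the target list has the highest median, at 0.84.

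The genes whose pattern over the 6 libraries was closest to that of a given gene were found by the root mean square distance of log2 values, each centred on its own mean, among the 16381 other genes that averaged 1 FPKM or more. For EGR1 these were TFAP2A at 0.19, RINL at 0.21 and PDE4D at 0.22 log2 units. For FOS they were ANKLE1 at 0.15, SPAG16 at 0.15 and CCDC74A at 0.16. For JUN they were MRPS30 at 0.03, ROBO1 at 0.04 and TPPP at 0.05, and for ATF3 they were TBL2 at 0.03, NCAM2 at 0.04 and SLC10A3 at 0.04. The likeness rests mainly on the difference between 2 groups of 3 libraries, which many genes share: 1606 genes lay within 0.2 log2 units of JUN and 1631 of ATF3, but 20 of FOS and 1 of EGR1.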

How the data were processed

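RNA-Seq of 3 parental and 3 resistant C4-2B libraries was analysed, with groups and library numbers taken from the sample titles. According to the methods of the study, single-end reads (50 bp) were quality-trimmed in TrimGalore 0.4.3 and mapped to GRCh38 by STAR 2.5.3 with GENCODE 25, and the authors determined differential expression in Cufflinks 2.2.1. The deposited table names no unit, and its values were taken as FPKM from these tools and their form. The submitters' processing notes instead name mm10, Trimmomatic 0.27 and FastQC 0.10.1. The deposited table holds human gene identifiers, of which 56980 of 58024 matched GENCODE v44, and 99.9% of these lay at the same GRCh38 place. The labels name a TruSeq V2 kit and a stranded total RNA kit, and neither the use of strand nor the scaling between libraries is stated. The short non-coding RNA RPPH1 was listed at 0 in all parental libraries and made up 10.7% to 11.6% of the summed FPKM in the resistant libraries. RMRP made up 18.4% to 21.5% in the parental and 11.4% to 12.6% in the resistant libraries. The source of this difference was not tested. The table holds no counts, so no count test, interval or floor was possible, and depth was only estimated, from the smallest steps of genes with 1 transcript of 600 to 8000 bases and fragments of 200 bases.

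Log2(FPKM + 0.1) was fitted in limma 3.58.1 (R 4.3.3, lmFit, then eBayes with its trend option) over the 24468 genes that averaged 0.1 FPKM or more, two-sided, with Benjamini-Hochberg adjustment and a threshold of 0.05. Descriptions, motifs and figures were made in Python 3.11.15 (matplotlib 3.10.9, numpy 2.4.6, pandas 2.3.3). Promoter sequences came from RefSeq on GRCh38.p14 and gene positions from GENCODE v44. The genes and lists were chosen with earlier results of these data known. Named genes were the 10 genes, up to 3 called genes per direction and list with the largest change at a mean of at least 1 FPKM, and the 3 nearest genes each of FOS, JUN, EGR1 and ATF3. Some genes covered by this rule are not reported here. Lists are described by counts and medians, with no set test. Alternatives covered the pseudocount, the filter, the scaling, the variance trend, a replicate block, the call rule and each library left out.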

Additional observations from a re-analysis of the deposited data

How the results depend on the processing

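FOS, EGR1, IER2, JUN, JUNB and ATF3 kept their direction and stayed past the threshold in all 16 alternative settings in which they were tested, with limma adjusted p values up to 0.0482, which was JUN with the replicate number as a block. No member changed sign in any setting, FOSB passed the threshold in 0 of 15 settings (limma, adjusted p 0.0772 to 0.425, log2 difference 0.32 to 1.55), and FOSL1 was tested only without a filter, with a log2 difference of −0.02. FOSL2 passed in 12 of 16 settings and was lost only with single libraries left out, with log2 differences of −1.45 to −0.98 over the libraries left out. JUND passed in 3 of 16 settings. Its log2 difference was −0.55 at a pseudocount of 1 FPKM, and −0.56 at 0.01 FPKM, with all genes above 0 in any library and without a variance trend. It was −0.44 with quantile normalisation, −0.51 with upper quartile scaling, −0.46 with median of ratios scaling and −0.50 with libraries set to one sum without short non-coding RNAs, with adjusted p values from 0.0511 to 0.120 over these settings, and −0.70 to −0.35 with each library left out. When a difference of at least 2-fold was also required, 3 members were called in place of 8, with EGR1 and FOS higher (2 in place of 4) and FOSL2 lower (1 in place of 4), 40 related genes in place of 67 and 6979 genes in place of 10868. With each library left out in turn, 6 to 8 members were called, with 4 higher throughout and 2 to 4 lower, and only FOSL2 and JUND were lost. Each of parental library 0, resistant library 0 and resistant library 1 left 2 lower members when it was left out. The labels do not say what the replicate number marks. Libraries of the same number showed no shared deviation from their group means, with correlations of 0.00802, 0.0165 and −0.00301. With the number as a replicate block, 9463 genes, 63 related genes and 7 members were called, and the JUND difference of −0.56 had an adjusted p of 0.0790. The scaling and filter choices moved the median of all genes to between −0.09 and 0.05. The absence of counts limits the low genes FOSB, FOSL1 and parental EGR1, whose counting error is unknown.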
